A study of Danio rerio with 2 samples.

Results

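Cartilage cells with abundant heat shock transcripts were described in a single-cell RNA-seq study of the head skeleton of juvenile zebrafish. A cell barcode was counted as an hsp70-high chondrocyte when the genes hsp70l, hsp70.1, hsp70.2 and hsp70.3 together had at least 10 unique molecular identifiers (UMIs, the count of distinct captured transcripts) and when matn1, the gene of the cartilage matrix protein matrilin 1, stood at 20 or more UMIs per 10000. This rule found 191 of 4062 barcodes. They were set against the other 2256 barcodes that passed the same matn1 minimum, called other chondrocytes here, and the mutant cells were set against the wild-type (WT) cells.

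The study held 1 library from nkx3.2 mutants, homozygous for the el802 allele and labelled 22 days post fertilization, and 1 library from WT animals, labelled 21 days. Both carried the transgenes Tg(fli1a:EGFP)y1 and Tg(sox10:DsRed)el10, and live cells with both reporters had been sorted from dissociated craniofacial tissue, so cells that lack either reporter are not represented. The extraction protocol names 21 days for both. The number of animals behind each library is not given in the sources used here. With 1 library per genotype, library and age cannot be told apart from genotype, no test between genotypes was made, and every interval below is a 95% interval that covers counting error only.

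HSP70 proteins bind unfolded stretches of other proteins and work with J-domain cochaperones and with HSP90. Their stress-inducible genes are nearly silent in unstressed cells and are switched on together by heat shock factor 1, along with inducible HSP90, J-domain and polyubiquitin genes. Constitutive relatives such as hspa8 and hsp90ab1 serve the same folding work at all times. Chondrocytes secrete large amounts of collagen and proteoglycan, and tissue dissociation and sorting are known to induce heat shock and immediate early genes in many cell types. Whether the transcripts described here were made in the animal or during dissociation was not tested.

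The mutant library held 84 hsp70-high chondrocytes among 2005 barcodes and the WT library held 107 among 2057. The whole libraries held 16349558 UMIs in the mutant and 13927936 in WT, and the hsp70-high chondrocytes 628359 and 656656 of them. Cells were shallower in the state: the median was 6831 UMIs in hsp70-high against 9541 in other chondrocytes of the mutant library, and 4956 against 7394 in WT. The median mitochondrial share of UMIs was 0.617% against 0.494% in the mutant library and 0.935% against 0.734% in WT. The part of depth and mitochondrial share in the results below was not tested beyond the comparisons that thin or match cells on depth. The libraries shared 4 barcodes, 1 of them an hsp70-high chondrocyte of the mutant library. The targeted gene nkx3.2 (ENSDARG00000037639) had 41.3 counts per 1000000 UMIs (CPM; 38.3 to 44.6) in the whole mutant library and 45.7 CPM (42.2 to 49.4) in the whole WT library, and the nature of the allele is not given, so this level checks no label.

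The markers matched the label of a chondrocyte. All 13 chondrocyte markers had UMIs in them, summing to 41858 CPM in hsp70-high against 43760 CPM in other chondrocytes of the mutant library and to 59110 against 66262 CPM in WT. The median cell had 382 against 434 UMIs per 10000 of these markers in the mutant library and 408 against 629 in WT. The 13 include matn1, which the rule used to choose both groups, so its part in these values is no support for the label. Of the 6 red blood cell markers none had a UMI in any hsp70-high chondrocyte. The 9 leukocyte markers summed to 0 UMIs in mutant and 1 in WT, and the 12 muscle markers to 2 UMIs in each. Of the 7 endothelial markers only fli1a, whose promoter drives a sorting reporter, had UMIs. The 9 connective tissue markers, all with UMIs, stood higher in the state, at 452 against 194 CPM in the mutant library and 428 against 219 CPM in WT, although the median cell was close in both: 1.2 against 1.22 UMIs per 10000 in the mutant library and 1.31 against 1.09 in WT. The highest cell reached 200 UMIs per 10000 in mutant hsp70-high chondrocytes. The 12 glial, neuronal and pigment markers summed to 2 UMIs in mutant and 0 in WT, and the 6 mural markers to 5 and 16 UMIs. The 9 epithelial markers summed to 1687 against 1415 CPM in the mutant library and 1412 against 1394 CPM in WT.

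**Figure D1:**
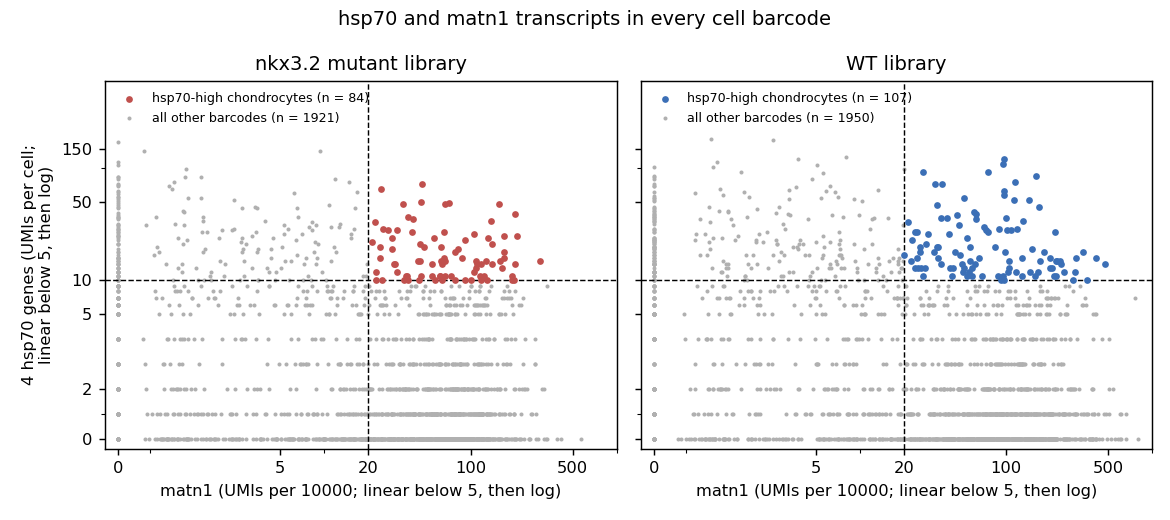
Each point is 1 cell barcode, with matn1 in UMIs per 10000 on the x axis and the summed UMIs of the 4 hsp70 genes on the y axis (both axes linear below 5 and logarithmic above), mutant library on the left and WT on the right. Dashed lines mark 20 UMIs per 10000 of matn1 and 10 hsp70 UMIs; the 84 mutant and 107 WT coloured points lie in the upper right, and counts run down to the lines without a gap.

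The 4 hsp70 genes chose the cells, so their levels are a description. In the state the summed hsp70 count ran from 10 to 73 UMIs with a median of 15 in the mutant library, and from 10 to 122 with a median of 17 in WT. At least 20 UMIs were found in 30 mutant and 45 WT cells, and at least 50 in 3 and 13. Other chondrocytes had a median of 1 UMI in each library, and 42.2% of mutant and 41.1% of WT barcodes with matn1 had none. The counts were continuous across the threshold: 25 mutant and 15 WT cells had 10 or 11 UMIs, and 35 mutant and 28 WT cells just outside had 8 or 9. Just inside the matn1 minimum, at 20 to 25 UMIs per 10000, lay 8 mutant and 9 WT members, and just outside, at 15 to 20, lay 8 mutant and 15 WT hsp70-high barcodes.

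The gene hsp70.3 (ENSDARG00000021924) supplied most of the signal. It stood at 1819 CPM in hsp70-high against 130 CPM in other chondrocytes of the mutant library, and at 2654 against 147 CPM in WT. It had UMIs in every member and was the highest of the 4 in 79 of 84 mutant and 97 of 107 WT cells. The gene hsp70.2 (ENSDARG00000092362) followed, at 535 against 18.4 CPM in the mutant library and 760 against 16 CPM in WT. The lowest were hsp70l (ENSDARG00000055723), at 194 against 6.72 CPM in the mutant library and 536 against 17.7 CPM in WT, and hsp70.1 (ENSDARG00000029688), at 137 against 4.54 CPM and 312 against 6.01 CPM. UMIs of all 4 genes were found in 19 mutant and 37 WT cells.

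The mixture of hsp70 transcripts is given as a description too, since the sum of these 4 genes set the groups apart. The share of hsp70.3 among all hsp70 UMIs was 67.8% (65.5 to 70.0) in hsp70-high against 81.4% (79.5 to 83.2) in other chondrocytes of the mutant library, and 62.3% (60.4 to 64.1) against 78.7% (76.7 to 80.6) in WT. The share of hsp70.2 was 19.9% against 11.5% in the mutant library and 17.8% against 8.58% in WT. The share of hsp70l was 7.23% against 4.22% in the mutant library and 12.6% against 9.50% in WT. A lower share of hsp70.3 was not particular to chondrocytes. Below the matn1 minimum it was 58.5% in hsp70-high against 76.0% in other barcodes of the mutant library, and 57.0% against 74.4% in WT. The genes hsp70.1, hsp70.2 and hsp70.3 neighbour each other on 1 chromosome of the RefSeq annotation and are near-identical copies, so how the authors' counting split reads among them is uncertain; hsp70l lies on another chromosome.

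The state took up 7.08% of chondrocytes (84 of 1187; 5.68 to 8.69) in the mutant library and 8.49% (107 of 1260; 7.01 to 10.2) in WT. These intervals overlap. With a threshold of 15 hsp70 UMIs per 10000 in place of 10 UMIs, the shares were 7.67% in the mutant library and 9.13% in WT. Among barcodes of 5000 to 12000 UMIs, a range chosen after seeing the data, the order turned, with 7.62% in the mutant library and 5.96% in WT. No difference between genotypes in the share was therefore read from these libraries.

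Barcodes below the matn1 minimum were hsp70-high more often. They numbered 201 of 818 in the mutant library (24.6%; 21.7 to 27.7) and 256 of 797 in WT (32.1%; 28.9 to 35.5), so the chondrocytes described here were 29.5% of all hsp70-high barcodes in each library. In barcodes with under 5 UMIs per 10000 of matn1 the share was 29.3% in the mutant library and 35.1% in WT, and at 75 to 100 it was 2.78% and 6.08%. Above that level the share did not go on down: at 150 or more it was 11.5% (6.27 to 18.9) in the mutant library and 7.06% (4.57 to 10.3) in WT.

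**Figure D2:**
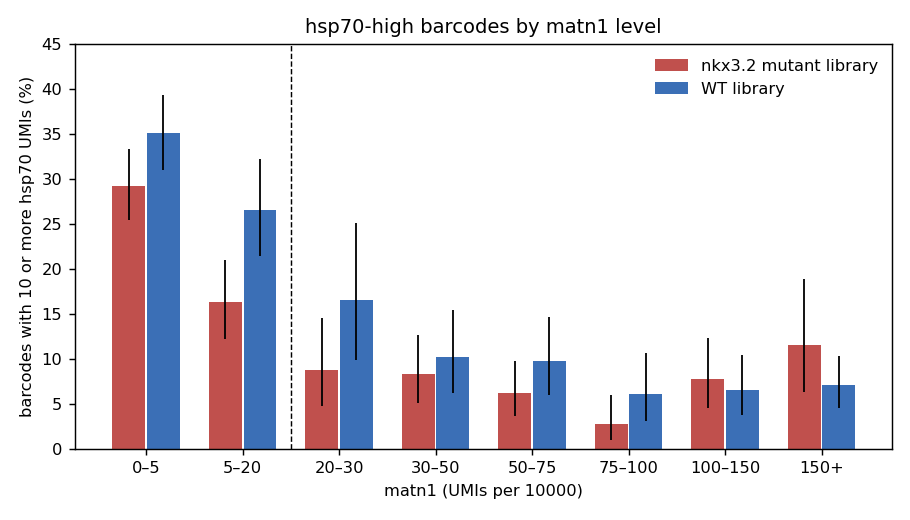
Bars give the percentage of barcodes with 10 or more hsp70 UMIs in each range of matn1 (UMIs per 10000), mutant library left of WT, with exact binomial 95% intervals as lines; the dashed line marks the matn1 minimum of 20. The share is 29.3% (mutant) and 35.1% (WT) in the lowest range and between 2.78% and 16.5% above the minimum.

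Apart from the 4 hsp70 genes, few genes stood apart in the state. UMIs were summed over the cells of each group, and a gene entered when at least 10 UMIs were expected in the hsp70-high chondrocytes of each library. Of 2196 genes that entered, 22 (1.0%) were at least 2-fold higher in hsp70-high than in other chondrocytes of both libraries and 4 (0.182%) at least 2-fold lower. The median log2 ratio over all genes was 0.01 in the mutant library and 0.04 in WT. Against others matched to each member by total UMIs, 29 of 2310 genes that entered were 2-fold higher in both. All 22 entered, and 7 of them remained 2-fold higher: hsp90aa1.2, dnajb1b, ubb, fosab, jun, rpa3 and spp1. The last of these rested mostly on 1 cell in each library. The members were chosen on the same cells and cells of 1 library are not replicates, so these counts describe 2 libraries and carry no p-value.

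By the smaller of the ratios in the 2 libraries, spp1 stood highest, mostly from 1 cell in each, followed by 2 partners of HSP70 that were found in most cells of the state. The gene hsp90aa1.2 (ENSDARG00000024746), which encodes a cytosolic HSP90 of the alpha type, had 546 UMIs in hsp70-high and 1716 in other chondrocytes of the mutant library, or 869 against 156 CPM. In WT it had 808 and 1820 UMIs, or 1230 against 195 CPM. The ratios were 5.57 (5.05 to 6.14) and 6.30 (5.79 to 6.85), and the transcript was found in 74 of 84 mutant and 97 of 107 WT cells of the state. The gene dnajb1b (ENSDARG00000041394), a J-domain cochaperone that hands substrates to HSP70, stood at 781 against 166 CPM in the mutant library (4.70-fold; 4.24 to 5.19) and at 930 against 160 CPM in WT (5.82-fold; 5.28 to 6.39). No single cell held more than 6.23% of the UMIs of either gene in either library. Both genes were over 2-fold higher in both libraries under each of 13 alternative settings.

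Constitutive chaperones did not follow. The gene hspa8, the housekeeping HSP70 and one of the most abundant chaperone transcripts of these cells, stood at 2740 against 2928 CPM in the mutant library, a ratio of 0.936 (0.891 to 0.982). In WT it stood at 3131 against 3504 CPM, a ratio of 0.894 (0.854 to 0.934). The housekeeping HSP90 gene hsp90ab1 stood at 2860 against 2671 CPM in the mutant library and at 2718 against 2894 CPM in WT, within 1.07-fold of equal in each. Of 54 heat shock genes outside the rule, a list that was mainly but not only cytosolic, 19 entered. The genes hsp90aa1.2 and dnajb1b were the 2 that were 2-fold higher in both. Above equal in both libraries were 8 of the 19, against 34.7% of all genes. The list medians were −0.03 in the mutant library and 0.25 in WT on the log2 scale.

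Scarcer heat shock genes were higher as a sum, as were the scarce genes of several other lists. The 35 genes of the list too scarce to enter summed to 247 against 111 CPM in the mutant library, a ratio of 2.22 (1.86 to 2.62), and to 350 against 177 CPM in WT, a ratio of 1.98 (1.72 to 2.27). Over the genes too scarce to enter, the ratios were 4.42 in the mutant library and 2.51 in WT for fibrous matrix, 4.0 and 2.14 for cartilage matrix, 2.47 and 2.0 for gadd45 and p53 and 2.07 and 2.26 for further immediate early genes. The cartilage matrix sums held 24 mutant and 22 WT UMIs in the state, and 1 cell held 45.8% of the mutant ones. For gadd45 and p53, 1 cell held 33.8% of the mutant UMIs. Some lists lay near equal in the mutant library only, such as glycolysis at 1.05 (1.76 in WT) and inflammation at 0.942 (1.96 in WT). A higher sum was therefore not particular to heat shock genes. Among the 35 scarce heat shock genes was ahsa1b, an activator of the HSP90 ATPase. It stood at 50.9 against 10.5 CPM in the mutant library and 62.4 against 22.0 CPM in WT. Another was hspa4a, of the HSP110 family of nucleotide exchange factors, at 52.5 against 10.5 CPM and 73.1 against 21.4 CPM. These 2 were named after their values were seen. The 12 genes of the chaperonin TRiC and prefoldin that entered, which fold actin and tubulin, held none past 2-fold in both. Over all genes 1.0% were 2-fold higher and 0.182% lower in both. The medians of the 12 were −0.23 in the mutant library and −0.11 in WT.

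Polyubiquitin was the other arm of protein quality control that stood higher. The gene ubb (ENSDARG00000093313), whose transcript encodes ubiquitin repeats that tag proteins for the proteasome, stood at 221 against 82.9 CPM in the mutant library (2.67-fold; 2.22 to 3.19) and at 362 against 86.3 CPM in WT (4.2-fold; 3.62 to 4.86). A second entry named UBB (ENSDARG00000002369) stood at 180 against 85.2 CPM and at 253 against 75.7 CPM, and reads may be split between such similar genes. Of 26 ubiquitin and proteasome genes that entered, ubb was the 1 that was 2-fold higher in both (UBB was not on the list), against 1.0% of all genes. The list medians were −0.03 in the mutant library and 0.19 in WT.

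**Figure D3:**
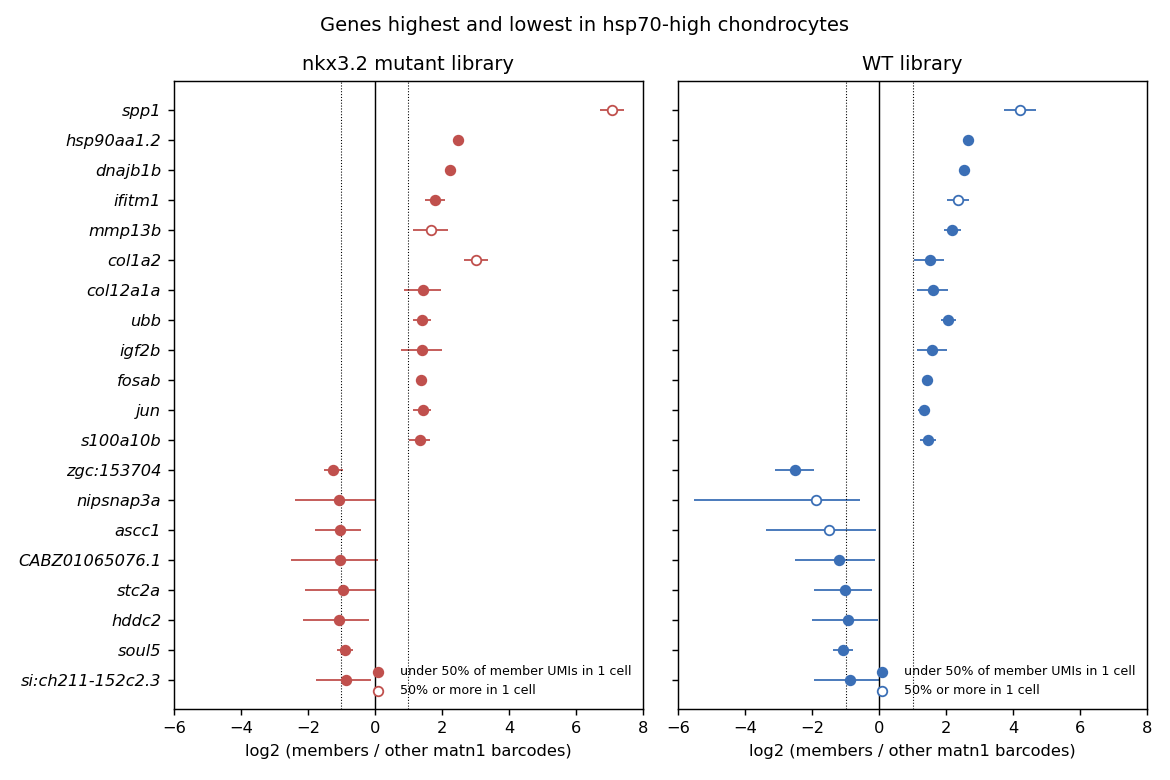
Log2 ratio of CPM in hsp70-high over other chondrocytes with 95% counting intervals, mutant library on the left and WT on the right, for the 12 genes highest and the 8 genes lowest by the naming rule; dotted lines mark 2-fold. Open symbols mark genes with at least 50% of their UMIs in the state in 1 cell, as for spp1, and filled symbols such as hsp90aa1.2 and dnajb1b do not rest on 1 cell.

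Immediate early genes of the AP-1 family were higher as well. AP-1 is a dimer of Fos, Jun and related basic leucine zipper proteins that is induced within minutes by many stimuli. All 10 AP-1 genes that entered were above equal in both libraries, against 34.7% of all genes, and 4 of them were 2-fold higher in both: fosab, jun, fosb and jdp2b. The genes fosab and jdp2b, with gadd45ga, had been taken as markers of such cells on these same data, so their direction is not independent evidence. The list medians were 0.80 in the mutant library and 0.77 in WT. The gene fosab stood at 533 against 205 CPM in the mutant library (2.60-fold; 2.31 to 2.92) and at 1071 against 400 CPM in WT (2.68-fold; 2.47 to 2.90). Its partner jun stood at 212 against 79.0 CPM in the mutant library (2.68-fold) and at 425 against 168 CPM in WT (2.53-fold). The gene jdp2b, a Jun dimerization protein that represses AP-1 targets in mammals, stood at 380 against 190 CPM in the mutant library, 2.0-fold (1.75 to 2.29), and at 600 against 91.1 CPM in WT, 6.59-fold (5.83 to 7.43). The WT ratio of jdp2b was the larger, and the difference between the libraries was not tested. The jun family members junba and junbb were above equal but under 2-fold in each library.

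In other stress lists few of the genes that entered were 2-fold higher in both libraries, and over all genes the share was 1.0%. Counts of none or 1 in such short lists lie near that share and are not read as a result. The scarce genes of some of these lists summed to the ratios given above. Of 18 further immediate early genes that entered none was 2-fold higher in both, 13 were above equal in both against 34.7% of all genes, and the medians were 0.18 in the mutant library and 0.66 in WT. Among 10 genes of the gadd45 family, p53 targets and growth arrest, gadd45ga, a growth arrest and DNA damage inducible gene, was 2-fold higher in both, at 62.1 against 25.9 CPM in the mutant library (2.40-fold) and 163 against 38.1 CPM in WT (4.28-fold). Of 11 genes of the integrated stress response, which curbs translation through eIF2 alpha, none was 2-fold higher in both. Above equal in both were 6 of the 11, against 34.7% of all genes, and below equal in both was 1. The whole list summed to ratios of 1.03 (0.974 to 1.09) in the mutant library and 1.30 (1.24 to 1.37) in WT. A central transcription factor gene of the list, atf4b, stood at 557 against 313 CPM in the mutant library and 877 against 609 CPM in WT. Its ratios were 1.78 and 1.44, the first being the highest of the 11 genes in the mutant library, and its paralogue atf4a also entered. Over the 11 genes the log2 ratios ran from −1.35 to 0.83 in the mutant library and from −0.51 to 0.86 in WT, with medians of 0.07 and 0.32. None of the 13 oxidative stress genes or the 8 inflammation genes that entered passed 2-fold in both. Of the 13, 3 were above and 8 below equal in both libraries, and of the 8, 5 were above and 3 below. Over all genes 34.7% were above and 28.8% below.

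The endoplasmic reticulum, where collagen is folded, showed no list-wide difference. Of 12 genes for folding there that entered none was 2-fold higher in both libraries, against 1.0% of all genes. The medians were −0.16 in the mutant library and 0.06 in WT. The collagen chaperone gene serpinh1b, known as HSP47 and itself heat inducible in mammals, was counted with the heat shock genes, not among the 12. It stood at 589 against 252 CPM in the mutant library (2.34-fold, 2.09 to 2.61) and at 1115 against 702 CPM in WT (1.59-fold, 1.47 to 1.71). The BiP gene hspa5 stood at 153 against 73.1 CPM in the mutant library (2.09-fold) and at 236 against 158 CPM in WT (1.49-fold). The unfolded protein response factor gene xbp1 had ratios of 1.28 and 1.25.

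Summed over cells, the main cartilage matrix genes lay slightly below the level of other chondrocytes. The collagen II gene col2a1a stood at 9730 against 10767 CPM in the mutant library, a ratio of 0.904 (0.881 to 0.927), and at 16167 against 17917 CPM in WT, a ratio of 0.902 (0.885 to 0.920). The collagen IX gene col9a3 had ratios of 0.926 and 0.840, and lect1, which encodes the antiangiogenic matrix protein chondromodulin, 0.978 and 0.899. Of 21 matrix genes that entered, none passed 2-fold either way. Over all genes 1.0% were 2-fold higher and 0.182% lower in both, so this count lies near that share and is not read as a result. Below equal in both were 14 of the 21, against 28.8% of all genes, and the medians were −0.10 in the mutant library and −0.17 in WT. Among 9 cartilage transcription factor genes none passed 2-fold in both libraries, which is also near the share of all genes, and 8 were above equal in both against 34.7% of all genes. Their highest log2 ratio was 0.98 in the mutant library and 1.13 in WT, and the medians were 0.43 and 0.45. One of them, foxc1a, stood at 90.7 against 54.8 CPM in the mutant library and 107 against 68.3 CPM in WT. The targeted gene nkx3.2 stood at 60.5 against 44.9 CPM in the mutant library, a ratio of 1.35 (0.942 to 1.88), and at 73.1 against 43.6 CPM in WT, a ratio of 1.68 (1.22 to 2.27).

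Several hypertrophy genes had most of their UMIs in single cells, whereas mmp13b in WT did not. The gene spp1, which encodes the bone matrix protein osteopontin, had 534 UMIs in mutant hsp70-high chondrocytes, but 530 of them came from 1 cell, and 63 of 87 in WT came from 1 cell. Without the barcodes called as doublets by Scrublet, 1 of them a WT cell of the state, spp1 no longer entered. The collagenase gene mmp13b stood at 62.1 against 19.4 CPM in the mutant library, where 1 cell held 87.2% of its UMIs, and at 279 against 61.1 CPM in WT, where 16 cells had it. Without the cell with most UMIs of mmp13b in each group, an alternative added after seeing the data, its log2 ratio was −1.06 in the mutant library and 2.05 in WT, and that of spp1 was 0.72 and 2.59. The collagen X gene col10a1a stood at 27.1 against 143 CPM in the mutant library and at 900 against 391 CPM in WT, where 446 of 591 UMIs came from 1 cell. At least 5 UMIs of mmp13b were found in 1 mutant cell of the state (1.19%) against 1.27% of other chondrocytes, and in 6 WT cells (5.61%) against 1.91%. Osteoblast markers followed spp1: bglap and ifitm5 had no UMI in the state in either library, and the 6 markers summed to 864 against 9.99 CPM in the mutant library and 137 against 16.5 CPM in WT.

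Fibrous matrix genes were higher in the state. The whole list of 24 summed to 2600 against 1627 CPM in the mutant library and to 4020 against 2946 CPM in WT. All 8 genes that entered were above equal in both libraries against 34.7% of all genes, and col1a2 and col12a1a, which encode a chain of collagen I and the fibril-associated collagen XII, were 2-fold higher in both, against 1.0% of all genes; the list medians were 0.91 in the mutant library and 0.84 in WT. The gene col1a2 stood at 146 against 18.1 CPM in the mutant library, with 65.2% of its UMIs in 1 cell, and at 82.2 against 29.0 CPM in WT. It had UMIs in 8 mutant and 14 WT cells. The gene col12a1a stood at 52.5 against 19.3 CPM in the mutant library and 74.6 against 24.6 CPM in WT. Against depth-matched others the log2 ratio of col1a2 was 0.99 in the mutant library and 1.58 in WT, and that of col12a1a 0.51 and 2.03. Higher values were not particular to chondrocytes: in hsp70-high barcodes below the matn1 minimum the list medians were 1.36 in the mutant library and 0.50 in WT. The connective tissue markers given above moved with these genes, and their part was not tested.

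The remaining genes 2-fold higher in both libraries served varied functions. The growth factor gene igf2b had ratios of 2.65 in the mutant library and 3.0 in WT. The annexin-binding protein gene s100a10b had 2.53 and 2.75, and the feedback inhibitor of growth factor receptors errfi1b 2.20 and 2.70. The kinase gene pim2 had 2.15 in each library, pdcd4b, an inhibitor of translation in mammals, 2.11 and 2.63, and the chromatin remodeller gene chd2 2.10 and 2.13. The prothymosin gene ptmaa had 2.05 and 2.10. The gene ifitm1, of the interferon-induced transmembrane family, had 3.46 and 5.13, with 35.2% and 55.9% of its UMIs in 1 cell. The gene rpa3, a subunit of the single-strand binding complex of DNA replication, stood at 38.2 against 16.4 CPM in the mutant library and 59.4 against 22.1 CPM in WT. Against depth-matched others, rpa3 alone of the genes in this paragraph stayed 2-fold higher in both libraries. There the log2 ratio of chd2 was 0.29 in the mutant library and 0.39 in WT, and that of ptmaa 0.25 and 0.74.

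Genes lower in the state were scarce. The most abundant of them, zgc:153704 (ENSDARG00000045979), had 107 UMIs in hsp70-high and 4431 in other chondrocytes of the mutant library, or 170 against 403 CPM, a ratio of 0.423 (0.346 to 0.512). In WT it had 27 and 2166 UMIs, or 41.1 against 232 CPM, a ratio of 0.177 (0.116 to 0.258). Against others matched on depth 2 of the 4 genes entered, zgc:153704 and ascc1, and 0 of these were 2-fold lower in both libraries. The log2 ratio of zgc:153704 was −0.85 in the mutant library and −1.18 in WT, in place of −1.24 and −2.50. That of ascc1 was −0.72 and −2.25, in place of −1.06 and −1.49. The gene soul5, of a family of haem-binding proteins, stood at 234 against 436 CPM in the mutant library and at 140 against 294 CPM in WT, so its ratio of 0.536 missed 2-fold in the mutant library and 0.477 passed it in WT. The other genes 2-fold lower in both, nipsnap3a, ascc1 and CABZ01065076.1, had between 2 and 19 UMIs in the state per library. The hormone gene stc2a, a stanniocalcin, stood at 14.3 against 27.7 CPM in the mutant library and 19.8 against 39.7 CPM in WT. The genes hddc2 and si:ch211-152c2.3 had ratios of 0.471 to 0.546.

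Levels of hsp90aa1.2 and dnajb1b rose with the hsp70 count over its whole range, below the threshold too, whereas other genes did so less evenly. The level of hsp90aa1.2 in mutant chondrocytes was 88.6 CPM in the 501 cells with no hsp70 UMI, 153 CPM at 1 to 3, 377 CPM at 4 to 9, 620 CPM at 10 to 19 and 1237 CPM at 20 to 49 hsp70 UMIs. In WT the same steps gave 111, 187, 441, 885 and 1479 CPM. At 50 or more hsp70 UMIs, in 3 mutant and 13 WT cells, the levels were 3588 and 2781 CPM. The level of dnajb1b went from 119 CPM at 0 to 1019 CPM at 20 to 49 hsp70 UMIs in the mutant library and from 120 to 1065 CPM in WT. The level of fosab at the same ends was 170 and 492 CPM in the mutant library and 341 and 778 CPM in WT. Its 10 to 19 step lay above the 20 to 49 step, at 543 and 985 CPM. At 50 or more hsp70 UMIs fosab stood at 920 CPM in the mutant library and 2677 CPM in WT. Below the threshold, at 0, 1 to 3 and 4 to 9 hsp70 UMIs, jdp2b stood at 188, 163 and 267 CPM in the mutant library. In WT it stood at 76.4, 78.9 and 161 CPM. The level of gadd45ga at these steps was 24.4, 24.0 and 35.9 CPM in the mutant library and 31.4, 37.8 and 56.7 CPM in WT. Constitutive hspa8 stood at 2961 CPM at 0 and 2654 CPM at 20 to 49 in the mutant library, and at 3559 and 3342 CPM in WT. For col2a1a the levels at 0, 10 to 19 and 20 to 49 were 10975, 9883 and 9492 CPM in the mutant library. In WT they were 18185, 18100 and 12991 CPM, so its lower level there lay in the cells with most hsp70. Cells with more hsp70 were shallower, from a median of 9727 UMIs at 0 to 5383 at 20 to 49 in the mutant library and from 6971 to 4107 in WT.

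**Figure D4:**
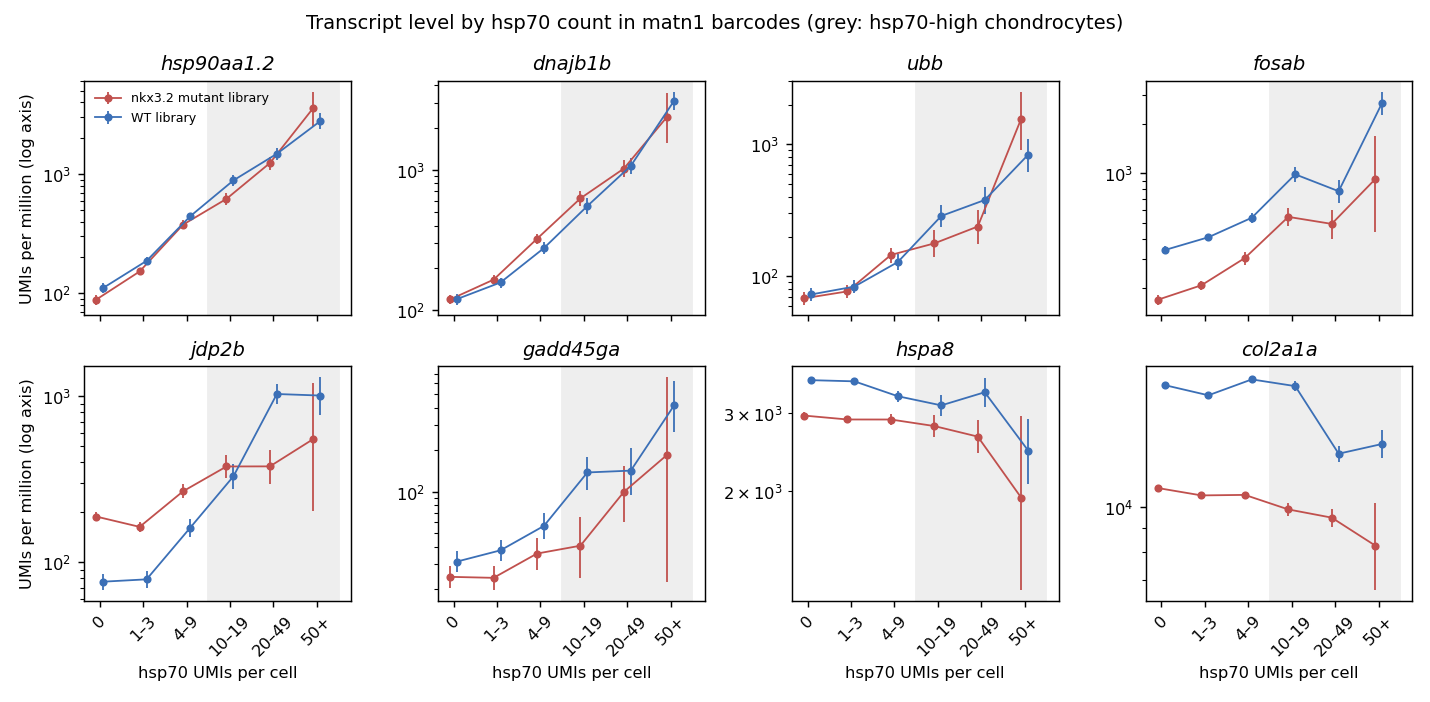
Level of 8 genes in CPM (log axis) by the number of hsp70 UMIs per cell in all chondrocyte barcodes, mutant library in red and WT in blue, with 95% counting intervals; grey marks the hsp70-high chondrocytes. In the mutant library hsp90aa1.2 stands at 88.6 to 3588 CPM from the lowest to the highest step and in WT at 111 to 2781 CPM, whereas hspa8 and col2a1a are flat or lower at the right; the highest step holds 3 mutant and 13 WT cells.

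Within the state the same order was seen, as a description, for hsp90aa1.2 and dnajb1b, and less so for AP-1 genes and gadd45ga. Over the 84 mutant cells Spearman's rho of the hsp70 level per 10000 UMIs with that of hsp90aa1.2 was 0.57, and over the 107 WT cells 0.62. For dnajb1b rho was 0.45 and 0.61, and for fosab 0.11 and 0.41. It was 0.22 and 0.51 for jdp2b, 0.18 and 0.11 for jun, and 0.15 and 0.20 for gadd45ga. The hsp70 level itself had a rho of −0.79 and −0.80 with a cell's total UMIs, which the threshold in UMIs in part sets and which all these values share.

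The hsp70-high barcodes below the matn1 minimum gave a comparison in cells that were not members but were chosen by the same hsp70 minimum. There 3620 genes entered, of which 72 (1.99%) were at least 2-fold higher than in the other low-matn1 barcodes of both libraries and 41 (1.13%) at least 2-fold lower. All 22 genes named by the chondrocytes entered, 19 were above equal in both libraries against 40.1% of all genes, and 5 were 2-fold higher in both: hsp90aa1.2, dnajb1b, ubb, fosb and jdp2b. The ratio of hsp90aa1.2 was 3.59 in the mutant library and 3.72 in WT, that of dnajb1b 3.28 and 3.16. The genes rpa3, chd2 and spp1 were below equal there in 1 of the libraries. The gene zgc:153704, lowest in the state, had ratios of 0.962 and 0.771 there, and soul5 had 1.12 and 0.970. The ratios of nkx3.2 were 2.19 and 3.14. These barcodes are of mixed type and were compared as 1 pool. They met the same hsp70 minimum in the same libraries, so a shared direction there is not independent evidence for the genes named.

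Mutant and WT cells of the state were then compared. The hsp70 genes chose the cells by a fixed number of UMIs, and the mutant cells were deeper, with a median of 6831 UMIs against 4956 in WT, so a mutant cell could pass at a lower level per UMI; their values are given with no difference read from them. The gene hsp70l stood at 194 CPM in mutant and 536 CPM in WT hsp70-high chondrocytes, a ratio of 0.362 (0.292 to 0.446), and its ratio in other chondrocytes was 0.380. The ratio of hsp70.1 was 0.438 (0.337 to 0.567), of hsp70.2 0.704 and of hsp70.3 0.685, against 0.756, 1.15 and 0.885 in other chondrocytes. The gene hsp90aa1.2 stood at 869 CPM in mutant and 1230 CPM in WT cells, a ratio of 0.706 (0.632 to 0.788), and dnajb1b at 781 and 930 CPM, a ratio of 0.840 (0.744 to 0.947).

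Of 2745 genes that entered this comparison, 126 (4.59%) were at least 2-fold higher in mutant cells of the state and 365 (13.3%) at least 2-fold lower. In other chondrocytes 64 of the same genes (2.33%) were higher and 186 (6.78%) lower. Scaling moved this split: after TMM scaling, which centres the bulk of genes, 193 were higher and 239 lower, and without it the median log2 ratio was −0.23 in the state and −0.14 in other chondrocytes. Counts in the state come from 84 and 107 cells against 1103 and 1153 others, so its intervals are the wider, and how many of the calls are counting error was not tested. With a minimum of 50 expected UMIs, 21 of 743 genes were higher and 54 lower.

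Several lists were lower in mutant cells both in the state and among other chondrocytes. Over all genes, 13.3% were 2-fold lower in the state and 6.78% in other chondrocytes, with median log2 ratios of −0.23 and −0.14. Of 20 endoplasmic reticulum genes 9 were 2-fold lower in the state and 8 in other chondrocytes, and the medians were −0.96 and −0.75. Of 10 AP-1 genes 3, fosab, jun and atf3, were 2-fold lower in the state. In other chondrocytes 2 of the 10 were 2-fold lower and 1 was 2-fold higher. In the state fosab stood at 533 CPM in mutant and 1071 CPM in WT cells, a ratio of 0.498 (0.436 to 0.568), against 0.513 in other chondrocytes. Of 27 further immediate early genes 10 were 2-fold lower in the state and 5 in other chondrocytes. The 22 cartilage matrix genes had medians of −0.44 in the state and −0.51 in other chondrocytes, and col2a1a ratios of 0.602 and 0.601. Ribosomal protein genes had medians of 0.22 and 0.17 and mitochondrial genome genes of −0.77 and −0.71.

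The gene jdp2b stood out from the other AP-1 genes. It stood at 380 CPM in mutant and 600 CPM in WT cells of the state, a ratio of 0.634 (0.538 to 0.746), but at 190 CPM in mutant and 91.1 CPM in WT other chondrocytes, a ratio of 2.08 (1.92 to 2.26). It was chosen here after its values were seen, and the difference between the ratios was not tested.

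The genes named as highest in mutant cells of the state included a prostaglandin D synthase pair. The gene ptgdsb.1 stood at 1622 CPM in mutant and 397 CPM in WT cells of the state, a ratio of 4.08 (3.56 to 4.69), with UMIs in 47 of 84 and 49 of 107 cells; in other chondrocytes it stood at 570 and 434 CPM, a ratio of 1.31 (1.26 to 1.37). Its neighbour in name ptgdsb.2 had ratios of 4.52 and 1.34, and reads may be split between them. With every cell thinned to 3000 UMIs the log2 ratio of ptgdsb.1 in the state was 1.15 in place of 2.03. The tyrosine catabolism gene hgd stood at 150 CPM in mutant and 32.0 CPM in WT cells, a ratio of 4.68, against 1.73 in other chondrocytes. The gene zgc:153704 had a ratio of 4.14 in the state and 1.73 in other chondrocytes, and fastkd2, of a family that acts on mitochondrial RNA, 4.05 and 2.97. The genes BX322618.1, spp1 and icn rested on few cells: 1 cell held 74.1%, 99.3% and 63.2% of their mutant UMIs. BX322618.1 had 54 UMIs in mutant and 0 in WT cells, which makes it at least 18.8-fold higher against a floor of 3 counts for the WT group.

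Of 5 hypertrophy genes that entered the comparison of genotypes, col10a1a and mmp13b were 2-fold lower and spp1 2-fold higher in mutant cells of the state. Over all genes the shares were 13.3% and 4.59%. Among the 8 genes named as lowest, the collagen X gene col10a1a stood at 27.1 CPM in mutant and 900 CPM in WT cells, a ratio of 0.0301, against 0.365 in other chondrocytes, and without the top cell of each group its log2 ratio was −4.11 in place of −5.06. The gene entpd5a, a nucleotidase gene needed for bone mineral in zebrafish, stood at 36.6 CPM in mutant and 265 CPM in WT cells, a ratio of 0.138 (0.0853 to 0.214) against 0.629 in other chondrocytes; 21 of its 23 mutant UMIs came from 1 cell. The membrane protease gene mmp14b had a ratio of 0.183 and the prostaglandin synthase gene ptgs2a one of 0.136, with 55.7% and 56.5% of WT UMIs in 1 cell. At a matn1 minimum of 50 the log2 ratio of mmp14b was 0.13. The genes emid1, rgs5b, calr3b and gch1 had ratios of 0.114, 0.144, 0.200 and 0.213, and in other chondrocytes 0.279, 0.676, 0.332 and 0.400.

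**Figure D5:**
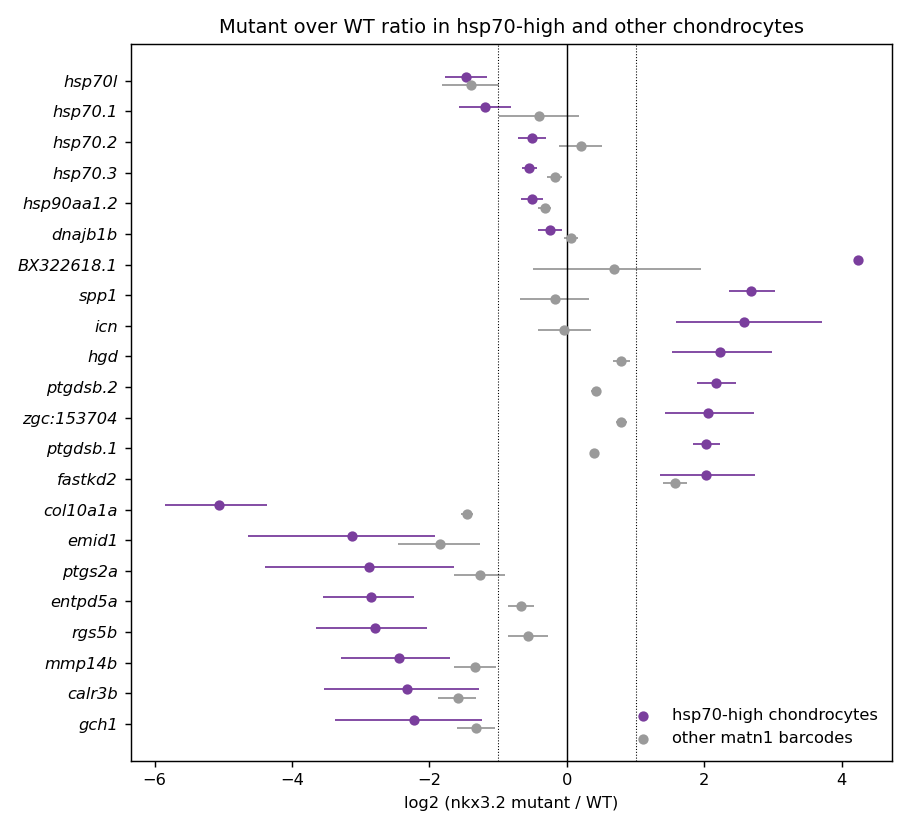
Log2 ratio of CPM in mutant over WT for hsp70-high chondrocytes (purple) and other chondrocytes (grey), with 95% counting intervals and dotted lines at 2-fold; BX322618.1, with 0 UMIs in WT cells of the state, is drawn at its floor of 3 counts without an interval. The hsp70 genes, at ratios of 0.362 to 0.704 in the state, chose the cells by a fixed UMI count in libraries of unequal depth; for all 16 named genes, chosen for their ratio in the state, the purple point lies farther from 0 than the grey one.

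Cells of the state also carried marks of other states, in shares that lay below those of other chondrocytes for some genes and above for others. At least 5 UMIs of sesn1, a p53 target in mammals, were found in 6 of 84 mutant cells of the state (7.14%) and 130 of 1103 other mutant chondrocytes (11.8%), and in 0 of 107 WT cells of the state, where the exact interval reaches up to 3.39%, against 3 of 1153 others. At least 2 UMIs of the transcription factor gene six2a were found in 11 mutant cells of the state (13.1%; 6.72 to 22.2) against 15.7% of other chondrocytes, and in 1 WT cell (0.935%) against 7.11%. At least 5 UMIs of col10a1a were found in 1 mutant (1.19%) and 3 WT cells of the state (2.80%), against 1.72% and 3.90% of other chondrocytes. At least 3 UMIs of the replication gene pcna were found in 6 mutant cells of the state (7.14%) against 7.16% of others, and in 20 WT cells (18.7%; 11.8 to 27.4) against 8.50%. At least 5 UMIs of col1a2 were found in 5 mutant cells of the state (5.95%; 1.96 to 13.3) against 0.997% of others, and in 5 WT cells (4.67%; 1.53 to 10.6) against 1.73%. These shares were not adjusted for depth, and the state was shallower.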

How the data were processed

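Droplet libraries had been made with the version 2 chemistry of a 10x Genomics 3′ kit and counted with Cell Ranger, per the labels' protocols and the submitters' processing notes; the version and the genome build are not given in the sources used here. The deposited values are raw UMI counts per gene and cell barcode as the authors filtered them, 35117 genes in each library. All barcodes were kept; Scrublet in scanpy 1.11.5 called 0.449% of mutant and 0.146% of WT barcodes, too few to count as a working call.

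Members were found by the hsp70 and matn1 rule, and the members, marker lists and gene lists were chosen with earlier results of these data known. UMIs were summed over the cells of each group and scaled to 1000000 UMIs (CPM). Sums have exact Poisson, ratios exact conditional binomial and shares exact Clopper-Pearson 95% intervals, which cover counting error only. A count under 3 was set to 3 in a ratio. A gene entered at 10 expected UMIs in the members of each library and was called at 2-fold, in both libraries for members against others. No p-value was computed, since each genotype is 1 library and cells are not replicates.

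The text names the hsp70 genes and markers, the 12 genes highest and 8 lowest in members in both libraries, the 8 highest and 8 lowest in mutant over WT members with at least 50 UMIs, the most abundant genes of each list, exceptions to list counts and nkx3.2; mitochondrial genome, ribosomal protein and rule genes were left out of the ranks. Other genes were named after their values were seen. Of 512 list symbols, 486 matched a gene in the files. Of the 35117 entries, 4218 share a symbol with another and were kept apart by identifier. Alternatives changed the thresholds, scaling, cell weights, depth and comparison cells. The scripts were tested on simulated Poisson counts with TMM scaling. That test held no spread between cells and did not use the scaling of the main ratios, so it covers neither. Intervals came from scipy 1.17.1, sums from pandas 2.3.3 with numpy 2.4.6, and figures from matplotlib 3.10.9 under Python 3.11.15.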

Additional observations from a re-analysis of the deposited data

Results flagged for a closer look

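The collagen X gene col10a1a lay on opposite sides in the libraries: its log2 ratio of hsp70-high over other chondrocytes was −2.40 in the mutant library and 1.2 in WT, where 1 cell held 446 of 591 UMIs. The chemokine gene ccl25b had a log2 ratio of mutant over WT of −3.02 in hsp70-high chondrocytes and of 1.57 in other chondrocytes, on 4 mutant and 34 WT UMIs in the state, and 32 of the 34 in 1 cell. The collagen I gene col1a1b had a log2 ratio of mutant over WT of 2.01 in hsp70-high chondrocytes and of −1.09 in other chondrocytes, on 27 mutant and 7 WT UMIs in the state, with 11 of the 27 in 1 cell. These differences were not tested.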

How the results depend on the processing

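No paired analysis was possible because each genotype was represented by 1 library. The share of chondrocytes in the state, 7.08% in the mutant library and 8.49% in WT, was 18.0% and 18.1% at a minimum of 5 hsp70 UMIs, 2.53% and 3.57% at 20, and 2.60% and 3.27% with cells thinned to 3000 UMIs, which left out 173 mutant and 255 WT barcodes. Among barcodes of 5000 to 12000 UMIs it was 7.62% and 5.96%. The 22 genes higher in both libraries, of 2196 that entered, became 45 of 4262 at 5 hsp70 UMIs and 14 of 948 at 20. They became 36 of 1860 at 15 hsp70 UMIs per 10000, 11 of 1550 at a matn1 minimum of 50 and 8 of 509 when thinned. At 50 expected UMIs they became 8 of 628, and without the top cell of each gene 13 of 2196. In the same order, 22, 11, 17, 14, 5, 8 and 22 of the 22 entered. Of these, 7, 9, 16, 8, 4, 8 and 13 were still 2-fold higher in both. The 4 genes lower in both became 1 of 628 at 50 expected UMIs and 12 of 2196 without the top cell. Against depth-matched others 1 of 2310 genes was lower in both. There 2 of the 4 entered, and 0 of them were 2-fold lower in both. In mutant over WT cells of the state, the 126 higher genes, of 2745 that entered, became 231 of 5001 at 5 hsp70 UMIs and 42 of 1144 at 20. They became 73 of 1833 at a matn1 minimum of 50, 19 of 618 when thinned, 193 of 2745 with TMM scaling and 21 of 743 at 50 expected UMIs. The 365 lower genes became 168 at 20 hsp70 UMIs, 192 at a matn1 minimum of 50, 74 when thinned, 239 with TMM scaling and 54 at 50 expected UMIs, of the same numbers entering. The counts moved where the number of genes that entered changed, and not always in the same direction. They also moved where that number stayed the same, without the top cell and with TMM scaling. What moved them was not tested.

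Values past 2-fold that changed sign were few. In members over others, col10a1a in WT was −0.68 on the log2 scale without its top cell, and mmp13b in the mutant library was −1.06 without its top cell and −0.15 against depth-matched others. In mutant over WT, spp1 was −2.51 without its top cell and mmp14b was 0.13 at a matn1 minimum of 50. The median of the hypertrophy list in WT was −0.25 at 20 hsp70 UMIs. Of 2520 values of single genes in members over others under the alternatives, 1978 stayed within the counting interval, and of 156 in mutant over WT, 121 did. Against depth-matched others the log2 ratio was 1.71 in the mutant library and 1.84 in WT for hsp90aa1.2, 1.46 and 2.21 for dnajb1b, and 0.69 and 2.21 for jdp2b. Depth limited genes to those with 10 expected UMIs; leaving out the top cell and the 5000 to 12000 UMI range were chosen after seeing the data.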

Other observations

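Cell cycle genes were scarce in the state but summed higher than in other chondrocytes of both libraries, with the larger ratio in WT. The 34 genes of the list summed to 414 against 317 CPM in the mutant library, a ratio of 1.31 (1.15 to 1.48), and to 726 against 299.5 CPM in WT, a ratio of 2.43 (2.20 to 2.67). The replication clamp gene pcna stood at 103 against 72.1 CPM in the mutant library and at 218 against 97.4 CPM in WT. Not all genes of the list followed. At least 1 UMI of top2a was found in 0 of 84 mutant and 0 of 107 WT cells of the state, against 1.18% and 0.434% of others. For mki67 it was 0 of 84 and 2 of 107 cells, against 1.45% and 1.04% of others. Clock genes summed to a ratio of 1.23 (1.07 to 1.41) in the mutant library and 1.75 (1.54 to 1.98) in WT. The differences between the libraries were not tested.

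A pair of stress and chemokine genes had unlike ratios in the libraries. The stress-induced chromatin protein gene nupr1 stood at 151 against 386 CPM in the mutant library, a ratio of 0.392 (0.316 to 0.480), and at 285 against 241 CPM in WT, a ratio of 1.18. The neutrophil chemokine gene cxcl8a stood at 31.8 against 47.6 CPM in the mutant library, and in WT it had 1 UMI in hsp70-high and 442 in other chondrocytes, or 1.52 against 47.4 CPM. Genes of glycolysis summed close to equal, with ratios of 0.977 in the mutant library and 1.02 in WT. These genes were named after their values were seen.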
